A study of Mus musculus with 48 samples.

Results

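Hippocampal subfield neuron genes are genes whose transcripts mark the principal neurons of the hippocampus, and 9 of them, of 54532 genes in the deposited table, are described here by name: Spink8, Fibcd1, Wfs1, Neurod6 and Klk8 of the pyramidal layers, Prox1, C1ql2 and Dsp of the dentate gyrus, and Lefty1, which was given no subfield. Each name matched 1 gene. The members were chosen by measured values of these data, and which values these were is not stated. The hippocampus against hemisphere difference of the vehicle mice is taken to be the value that chose them, so it is given as a description with no test. If regional values of the other treatments also took part, the regional tests below repeat that choice. RNA was sequenced from the hippocampus and from a brain hemisphere of male wild-type C57Bl6 mice, whose age the labels do not give. There were 4 treatments of 2 weeks. Angiotensin II mice received 0.7 mg per kg per day of the hormone by osmotic minipump. Mice with both drugs also drank hydralazine, a vasodilator, at 50 mg per kg. Hydralazine-only mice received saline by pump and hydralazine in the water, and vehicle mice received saline (0.9%) alone. Each treatment had 6 libraries from each region, 48 in all. The labels do not say whether a library came from 1 mouse or a pool, whether the hemisphere tissue still held its hippocampus, or whether replicates are separate mice. The spread behind each p-value is therefore that between libraries, which may be partly technical.

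The hippocampus is built from a few kinds of excitatory neuron in separate layers. Granule cells of the dentate gyrus send mossy fibres to the CA3 pyramidal neurons, which project in turn to the pyramidal neurons of CA1, the main output field. Each kind keeps its own transcription factors and secreted or surface proteins, so that a handful of transcripts can serve as labels for a layer. In bulk tissue fewer cells of a type and less RNA per cell cannot be told apart.

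Values are FPKM, which scales fragments to the length of the gene and to 1000000 reads, and differences are of log2(FPKM + 0.5) unless said otherwise. The 0.5 shrinks differences of low genes such as Dsp. A gene was called when its Benjamini-Hochberg adjusted p from limma was under 0.05 over all genes tested, two-sided. Reads in genes, recovered from FPKM and gene length, ran from 1.21 to 21 M in hippocampal libraries (median 17.96 M) and from 15.77 to 23.5 M in hemisphere libraries (median 18.97 M, where M is 1000000). In the hippocampus 6 libraries listed only 7805 to 15684 genes above 0, against 18914 to 23044 in the other 18. They were replicate 3 of angiotensin II, replicate 5 of both drugs, replicates 3 and 4 of hydralazine alone and replicates 3 and 4 of vehicle. The shallowest, hippocampal replicate 3 of hydralazine alone, had 1.21 M reads. Angiotensin II replicate 6 also stood apart, with the lowest mitochondrial share of its region in both the hippocampus (5.74%) and the hemisphere (2.77%). Cerebellar, striatal and neocortical marker lists separated the tissues as labelled, but the thalamic list did not. The summed FPKM of 6 thalamic neuron genes was 6.38 to 61.3 in hippocampal libraries, against 14.1 to 26.5 in hemisphere libraries. The highest, vehicle replicate 5 of the hippocampus, lay above every hemisphere library. The sum of 8 neocortical layer genes was 33.6 to 74.6 against 87.7 to 124.1. The summed FPKM of 6 cerebellar neuron genes was 0.983 to 38.8 in hippocampal libraries, against 175 to 270.4 in hemisphere libraries, and that of 6 striatal neuron genes 21.0 to 58.6 against 154.9 to 209.1.

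Promoter windows of RefSeq (build GRCm38.p6, 250 bases before to 50 after a transcript start) were held for 7 of the 9 genes, in 8 windows. Spink8 and Lefty1 are named only. NeuroD-family factors such as Neurod6 bind E-boxes, of the form CANNTG, which reads alike on both strands, and CAGATG is a form they are known to prefer. The windows below show a dentate and a pyramidal gene with CAGATG on either strand (Prox1 and Wfs1) and a dentate and a pyramidal gene without it (C1ql2 and Neurod6 itself). The other window of Prox1, at 190169466 to 190169765, is not printed and holds 0 CAGATG and 0 CANNTG. Capitals mark every CANNTG, and each sequence runs 5′ to 3′ along the strand of its gene.
Prox1, chr1:190170778-190171077, minus strand: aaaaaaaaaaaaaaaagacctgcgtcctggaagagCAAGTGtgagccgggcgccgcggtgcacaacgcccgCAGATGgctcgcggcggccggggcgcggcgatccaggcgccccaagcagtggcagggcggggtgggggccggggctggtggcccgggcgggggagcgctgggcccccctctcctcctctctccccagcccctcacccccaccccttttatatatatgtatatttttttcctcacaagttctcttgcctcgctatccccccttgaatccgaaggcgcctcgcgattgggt
C1ql2, chr1:120340332-120340631, plus strand: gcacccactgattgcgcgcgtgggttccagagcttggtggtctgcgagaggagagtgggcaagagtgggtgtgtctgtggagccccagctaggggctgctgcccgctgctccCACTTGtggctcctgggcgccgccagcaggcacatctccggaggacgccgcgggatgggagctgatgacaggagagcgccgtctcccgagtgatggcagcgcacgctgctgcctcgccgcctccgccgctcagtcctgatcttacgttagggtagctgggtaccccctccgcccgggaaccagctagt
Wfs1, chr5:36988933-36989232, minus strand: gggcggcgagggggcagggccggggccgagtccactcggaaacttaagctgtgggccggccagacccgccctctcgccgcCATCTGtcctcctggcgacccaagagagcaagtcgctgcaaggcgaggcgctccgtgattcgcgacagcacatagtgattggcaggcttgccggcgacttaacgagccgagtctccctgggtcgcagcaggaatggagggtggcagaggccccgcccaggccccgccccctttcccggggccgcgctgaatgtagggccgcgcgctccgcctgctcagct
Neurod6, chr6:55681214-55681513, minus strand: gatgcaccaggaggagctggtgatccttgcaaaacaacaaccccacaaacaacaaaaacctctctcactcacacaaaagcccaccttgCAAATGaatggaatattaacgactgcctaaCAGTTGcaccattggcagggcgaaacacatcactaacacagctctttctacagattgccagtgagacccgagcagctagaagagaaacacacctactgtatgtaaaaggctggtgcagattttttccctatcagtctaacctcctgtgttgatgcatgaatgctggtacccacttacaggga

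CAGATG, searched on both strands, was in 2 of the 8 windows, against 17.2% of 32851 RefSeq windows of the same length. Any CANNTG, of which CAGATG is one form, was in 6 of 8, against 72.3%. The GC box GGGCGG, searched on both strands and sharing no letters with an E-box match, was in 7 of 8, against 35.7%, with Neurod6 the window that lacked it. The share of G and C was 46.3% in the Neurod6 window, the lowest of the 8, and 74.3% in that of Fibcd1, the highest, against a median of 52.7% over all windows. Such matches describe letters in a window and not binding.

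In every treatment the mean level of all 9 transcripts was higher in the hippocampus than in the hemisphere. Dsp passed the filter on low values, at least 0.5 FPKM in at least 6 libraries, through hippocampal libraries alone, so a regional test of it is void, and it is described by its values only. Of the other 8 genes, 8 were called higher in angiotensin II mice, where 12% of 17246 genes tested were called higher. All 8 were called higher in mice with both drugs, where the share over all genes was 13.5%, and in hydralazine-only mice, where it was 12.4%. The 6 hippocampal libraries lay above all 6 hemisphere libraries for 8 of the 8 in angiotensin II mice (7.34% of all genes did), for 8 with both drugs (13.9%) and for 7 with hydralazine alone (6.92%). The exception was Klk8, with 0 reads in the shallowest library. The median of the 8 log2 differences was 3.02 with angiotensin II, 3.05 with both drugs and 2.47 with hydralazine alone, against -0.13, -0.19 and -0.37 over all genes tested. Quantile scaling moved the angiotensin II median over all genes to 0.05, and the share of called genes that were higher to 50.2%, against 33.1% as deposited. The 8 genes were called higher under it too. These counts describe the regional difference and are no independent support if the same values helped to choose the genes.

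**Figure D1:**
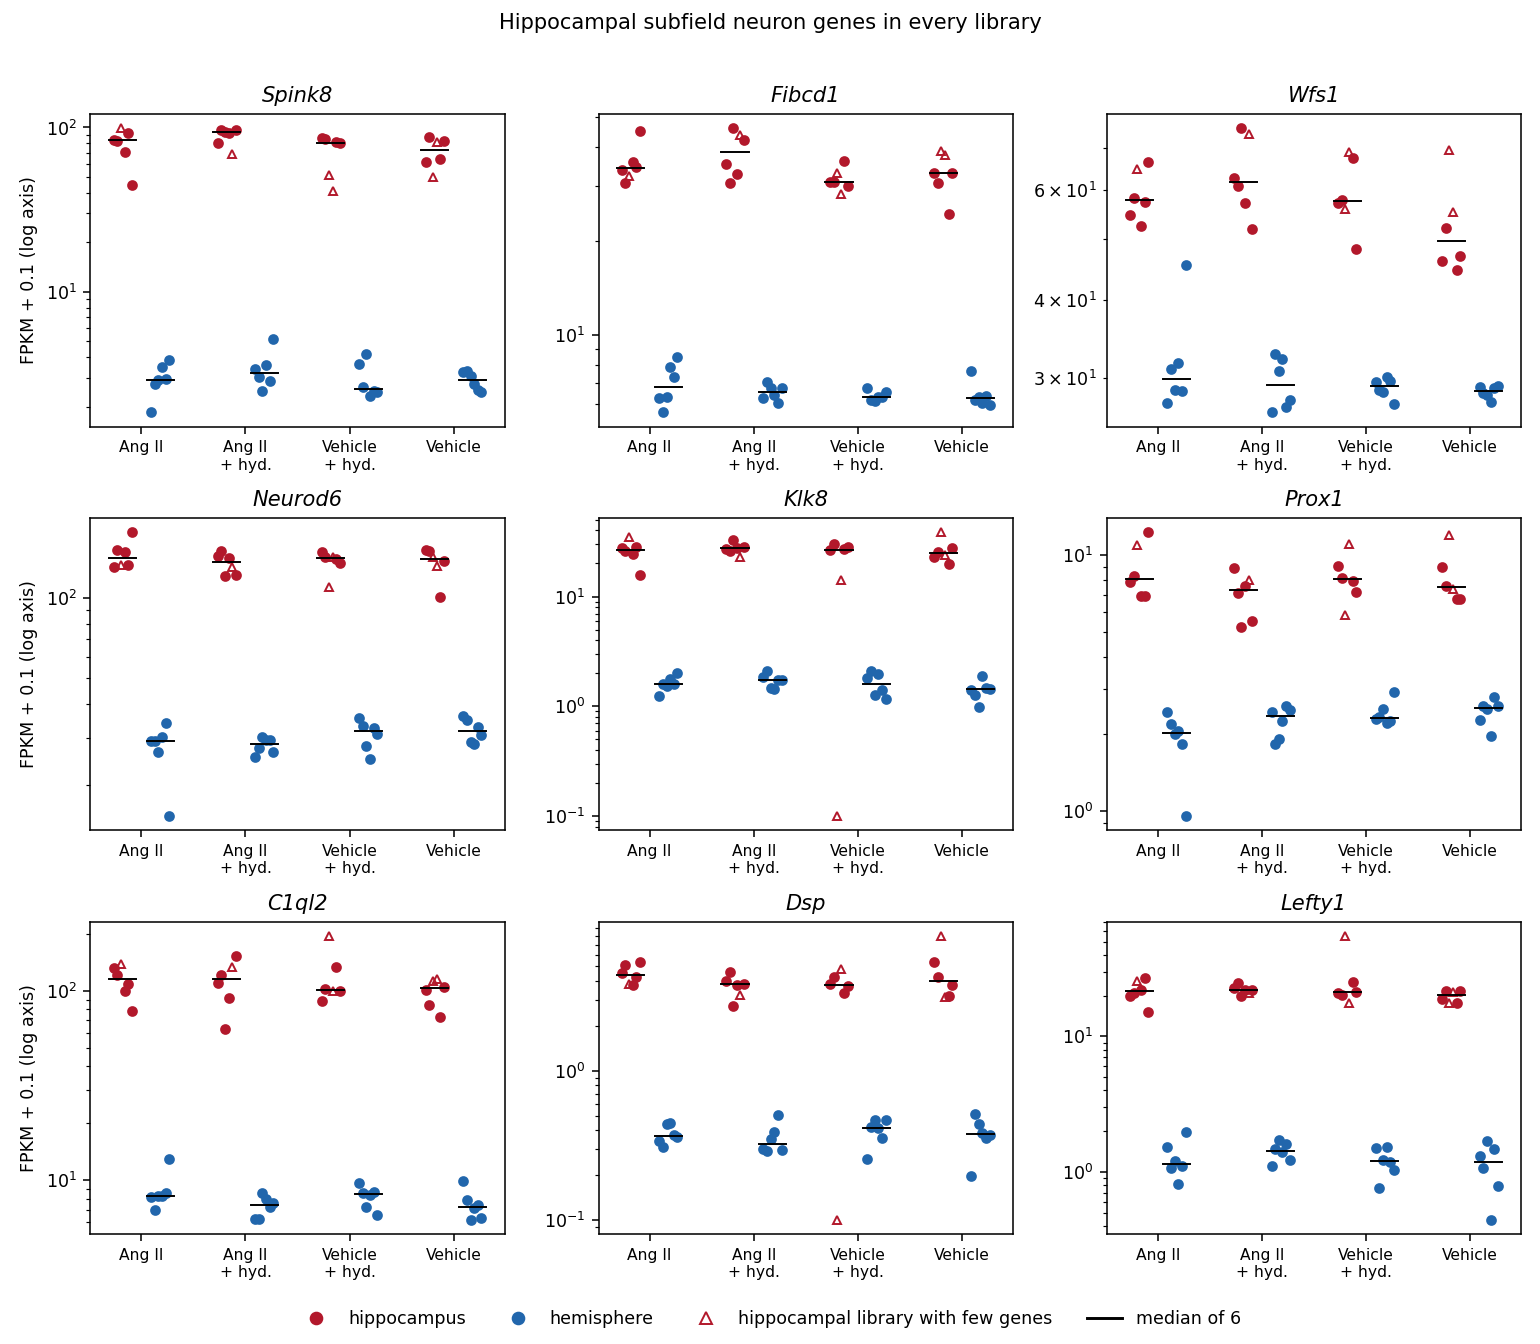
FPKM + 0.1 (log axis) of the 9 genes in each of 48 libraries, by treatment, hippocampus to the left (red) and hemisphere to the right (blue); bars are medians of 6 and open triangles the 6 hippocampal libraries with few genes. Red points lie above blue ones in every panel and treatment, apart from the triangles of Klk8 and Dsp at 0 FPKM in the hydralazine-only mice.

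Spink8, which encodes a Kazal-type serine protease inhibitor and marks CA1 pyramidal neurons, had the highest log2 difference of all genes tested in each of the 3 drug-treated groups. The gene (ENSMUSG00000050074) lies on the plus strand of chromosome 9 at 109812280 to 109826633, in build GRCm38. In angiotensin II mice its lowest, median and highest FPKM were 44.3, 83.2 and 98.7 in the hippocampus, against 1.74, 2.81 and 3.75 in the hemisphere. The lowest hippocampal library thus stood well above the highest hemisphere library. The log2 difference was 4.55 ± 0.20 (SE, n = 6 libraries a region, adjusted p = 4.13e-19, limma). It was 4.56 ± 0.20 with both drugs (adjusted p = 3.36e-19) and 4.39 ± 0.20 with hydralazine alone (adjusted p = 1e-18). The 3 values lay within 1 SE of one another. In the vehicle mice it was 4.42, rank 1 of 15248 genes, with hippocampal libraries from 49.7 to 86.9 FPKM and hemisphere libraries from 2.37 to 3.19.

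Fibcd1, a membrane receptor with a fibrinogen-like domain and a marker of CA1, and Wfs1, which encodes wolframin of the endoplasmic reticulum membrane and is also strong in CA1, differed in how far the hemisphere shared them. Fibcd1 (chromosome 2, minus strand, 31813290 to 31846005) measured 30.7, 34.1 and 45.1 FPKM (lowest, median, highest) in the hippocampus of angiotensin II mice, against 5.52, 6.71 and 8.37 in the hemisphere. Its log2 difference was 2.28 ± 0.10 (SE, adjusted p = 8.04e-19, limma), with 2.47 for both drugs and 2.24 for hydralazine alone. Vehicle mice showed 2.28, rank 31. Wfs1 (chromosome 5, minus strand, 36966104 to 36989205) had the smallest difference of the 9. In angiotensin II mice it measured 52.5, 57.6 and 66.3 FPKM in the hippocampus, against 27.3, 29.8 and 45.4 in the hemisphere. The groups did not overlap, although hemisphere replicate 6, at 45.4 FPKM, stood far above the other 5 hemisphere libraries. The log2 difference of Wfs1 was 0.88 ± 0.10 with angiotensin II (adjusted p = 1.82e-08, limma), 1.09 with both drugs and 1.01 with hydralazine alone. Wfs1 ranked 921 of 17246 genes with angiotensin II and 1177 of 15248 in vehicle mice, where its log2 difference was 0.85.

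Neurod6, a basic helix-loop-helix transcription factor of forebrain pyramidal neurons, was the most abundant of the 9 per kilobase in the hippocampus. Its gene lies on chromosome 6 (minus strand, 55677822 to 55681263). Its level in angiotensin II mice was 130.4, 141 and 176 FPKM in the hippocampus, against 15.1, 29.0 and 34.0 in the hemisphere. The lowest hemisphere value again belonged to replicate 6. Neurod6 differed on the log2 scale by 2.43 ± 0.12 with angiotensin II (adjusted p = 2.1e-17, limma), 2.25 with both drugs and 2.14 with hydralazine alone. In vehicle mice it was 2.06.

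Klk8, neuropsin, a secreted serine protease of pyramidal neurons, had the widest intervals. It lies on chromosome 7 (plus strand, 43797577 to 43803826). Angiotensin II mice had 15.5, 26.6 and 34.5 FPKM of it in the hippocampus, against 1.14, 1.51 and 1.90 in the hemisphere. In hydralazine-only mice it measured 0, 26.6 and 29.96 FPKM in the hippocampus, against 1.07, 1.51 and 2.00 in the hemisphere. The 0 is that of the shallowest library, where 3 reads of Klk8 would be 1.41 FPKM, far below the median of 26.6. What gave the 0 was not tested. Klk8 differed on the log2 scale by 3.68 ± 0.54 with angiotensin II (adjusted p = 1.4e-06, limma), 3.71 ± 0.54 with both drugs and 2.70 ± 0.54 with hydralazine alone (adjusted p = 0.000103). Without the shallowest library the value for hydralazine alone was 3.64 ± 0.17 (adjusted p = 2.63e-18, limma). The ± 0.54 of each treatment rests on 1 spread shared by all groups of the fit, which includes the 0 of that library. Vehicle mice, whose lowest hippocampal library had 19.8 FPKM, showed 3.87, rank 2.

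Prox1, the homeobox transcription factor that granule cells of the dentate gyrus need to keep their identity, was low but clearly regional. It lies on chromosome 1 (minus strand, 190118035 to 190170714). Angiotensin II mice had 6.81, 8.004 and 12.2 FPKM of Prox1 in the hippocampus, against 0.854, 1.93 and 2.33 in the hemisphere. Both extremes, the highest hippocampal and the lowest hemisphere value, came from replicate 6. Prox1 differed on the log2 scale by 2.01 ± 0.17 with angiotensin II (adjusted p = 1.27e-11, limma), 1.48 ± 0.17 with both drugs and 1.59 ± 0.17 with hydralazine alone. In vehicle mice it was 1.58, rank 171.

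C1ql2, a secreted C1q-like protein that granule cells place at mossy fibre synapses, was the second most abundant of the 9 in the hippocampus. Its gene is on chromosome 1 (plus strand, 120340582 to 120343174). The C1ql2 level of angiotensin II mice was 78.0, 115 and 140 FPKM in the hippocampus, against 6.84, 8.15 and 12.9 in the hemisphere. The hippocampal level varied among libraries of 1 treatment, with 62.6 to 153 FPKM among mice with both drugs and 88.0 to 195 among hydralazine-only mice. C1ql2 differed on the log2 scale by 3.62 ± 0.18 with angiotensin II (adjusted p = 2.01e-17, limma), 3.82 with both drugs, 3.77 with hydralazine alone and 3.66 in vehicle mice, rank 6.

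Dsp encodes desmoplakin, which ties desmosomes to intermediate filaments in epithelia and heart and marks the dentate gyrus in brain. It lies on chromosome 13 (plus strand, 38151294 to 38198577). Levels in angiotensin II mice were 3.64, 4.31 and 5.27 FPKM in the hippocampus, against 0.208, 0.264 and 0.345 in the hemisphere. Hemisphere libraries held 18 to 87 reads of it, so low levels there were measured and not at 0. The ratio of mean FPKM was 15.8 in angiotensin II mice, while the log2 difference, held down by the pseudocount, was 2.64. It was 2.43 with both drugs, 1.94 with hydralazine alone and 2.64 in vehicle mice, rank 15.

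Lefty1, a secreted TGF-beta family protein that blocks Nodal, is best known from left-right patterning of the embryo. It lies on chromosome 1 (plus strand, 180935022 to 180938400), and reads shared with its close paralog Lefty2 may make its level uncertain. In angiotensin II mice it measured 15.1, 21.3 and 26.8 FPKM in the hippocampus, against 0.720, 1.05 and 1.87 in the hemisphere. The log2 difference was 3.73 ± 0.19 with angiotensin II (adjusted p = 4.81e-17, limma), 3.63 with both drugs, 3.98 with hydralazine alone and 3.78 in vehicle mice, rank 3. The hydralazine-only value includes replicate 3 at 55.0 FPKM, from 134 reads, where the highest of the other 5 had 25.1.

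**Figure D2:**
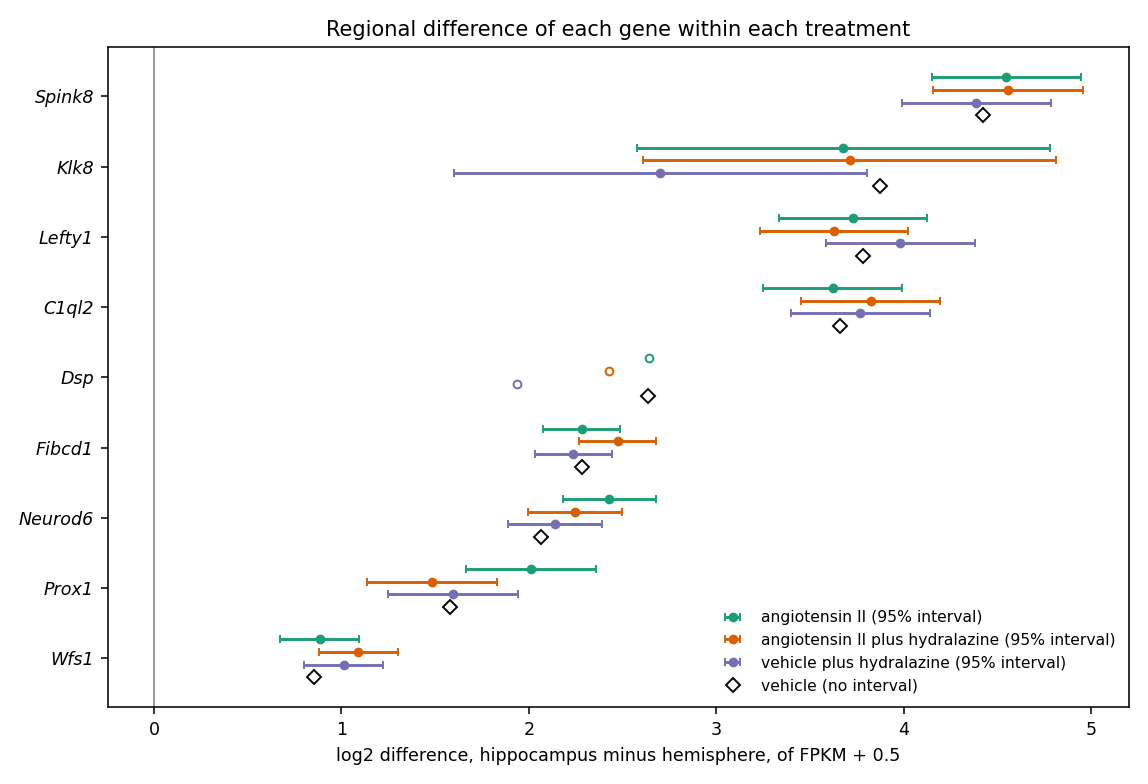
Log2 difference of FPKM + 0.5, hippocampus minus hemisphere (x axis), of each gene (y axis) in angiotensin II, both-drug and hydralazine-only mice with 95% intervals, and in vehicle mice (open diamonds, no interval). Dsp is drawn with open circles and no interval, since its regional test is void. Every interval lies above 0, from 0.67 for Wfs1 to 4.95 for Spink8, and Klk8 has the widest.

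No cut in the rule separates members from other genes. Between the members at the top of the vehicle ranking stood, among others, 2 long noncoding RNAs (ranks 5 and 7) and Lct (rank 8, log2 difference 3.06). Over the 24 hippocampal libraries the median FPKM ran, from the highest, Neurod6 at 141, C1ql2 at 107, Spink8 at 82.1, Wfs1 at 57.1, Fibcd1 at 33.0, Klk8 at 26.6, Lefty1 at 21.2, Prox1 at 7.65 and Dsp at 3.73. The ranges over the libraries overlapped for each pair of neighbours in this order except Lefty1 and Prox1. In the hemisphere the order was different, with Neurod6 at 29.2 and Wfs1 at 28.7 on top, their ranges overlapping, and Dsp at 0.269 at the bottom.

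Whether the regional differences changed with drug was asked by the interactions that leave out vehicle mice. None of the 9 genes and none of 17246 genes (0%) was called by limma for the angiotensin II effect in hydralazine-treated mice, where 584 genes had an unadjusted p under 0.05. For the hydralazine effect in angiotensin II mice the count was 0 (0%) as well, with 335 such genes. The 584 and 335 genes were 3.39% and 1.94% of those tested, both below the share of about 0.05 that chance gives. Prox1 was among the 335. Its regional difference changed by -0.53 ± 0.24 (log2, SE), both drugs minus angiotensin II, which missed the threshold (unadjusted p = 0.0351, adjusted p = 0.99986, limma). The value includes angiotensin II replicate 6. That replicate had the highest hippocampal Prox1 (12.2 FPKM) and the lowest hemisphere Prox1 (0.854 FPKM) of its treatment.

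Other genes of the same neurons, in lists chosen with earlier results known, were counted in the regional comparison of angiotensin II mice. Genes that passed the filter on low values through libraries of 1 region alone are left out of these counts and medians, and any that is named has values only. Of 10 other CA1 and pyramidal genes 6 were called higher in the hippocampus and 2 lower (12% and 24.2% of all genes tested, such genes included), with a median log2 difference of 1.15. The transcription factor Pou3f1 averaged 40.4 ± 7.6 FPKM in the hippocampus and 7.98 ± 0.96 in the hemisphere (SD, n = 6 each), a log2 difference of 2.26 (adjusted p = 6.16e-18, limma). Zbtb20, a zinc finger repressor that shapes CA1 fate, differed by 1.94, and Neurod2, a relative of Neurod6, by 1.79. Nov, a secreted matricellular protein, was among the lower ones (-0.58).

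Of 6 CA2 and CA3 genes 4 were called higher and 1 lower (12% and 24.2% of all genes tested). Bok, of the Bcl2 family, differed by 1.85, and Rgs14, a signalling regulator of CA2, by 1.42. Iyd, an iodotyrosine deiodinase, which passed through the hippocampus alone, had a hippocampal mean of 4.03 ± 2.40 FPKM (SD, n = 6) and a log2 difference of 1.96. Of 6 other dentate granule cell genes 5 were called higher and 0 lower. Lct, the lactase gene, had 11.4 ± 1.26 FPKM in the hippocampus and 0.590 ± 0.093 in the hemisphere (SD, n = 6 each), a log2 difference of 3.45. The channel gene Trpc6 differed by 1.64. Tdo2, of tryptophan breakdown, passed through the hippocampus alone and had a log2 difference of 1.93.

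The list of newborn granule cell and mossy cell genes did not share this direction. Over all genes tested 12% were called higher and 24.2% lower. Of 6 genes 1 was called higher, Igfbpl1 (log2 difference 1.36), and 3 lower, with a median of -0.41. Calb2, calretinin, averaged 5.91 ± 1.46 FPKM in the hippocampus and 94.2 ± 12.6 in the hemisphere (SD, n = 6 each), and Drd2, a dopamine receptor, 1.18 ± 0.96 and 13.3 ± 1.84. Both genes are also strong outside the hippocampus, Calb2 in thalamus and olfactory bulb and Drd2 in striatum. Genes of other regions lay low. Of 2 cerebellar neuron genes 2 were called lower (median log2 difference -4.45), the other 4 having passed through the hemisphere alone. Of 5 striatal genes 5 were called lower (-2.10), of 8 neocortical layer genes 6 (-1.53) and of 5 thalamic genes 4 (-0.88). Under quantile scaling 1 thalamic and 1 neocortical gene were called higher.

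**Figure D3:**
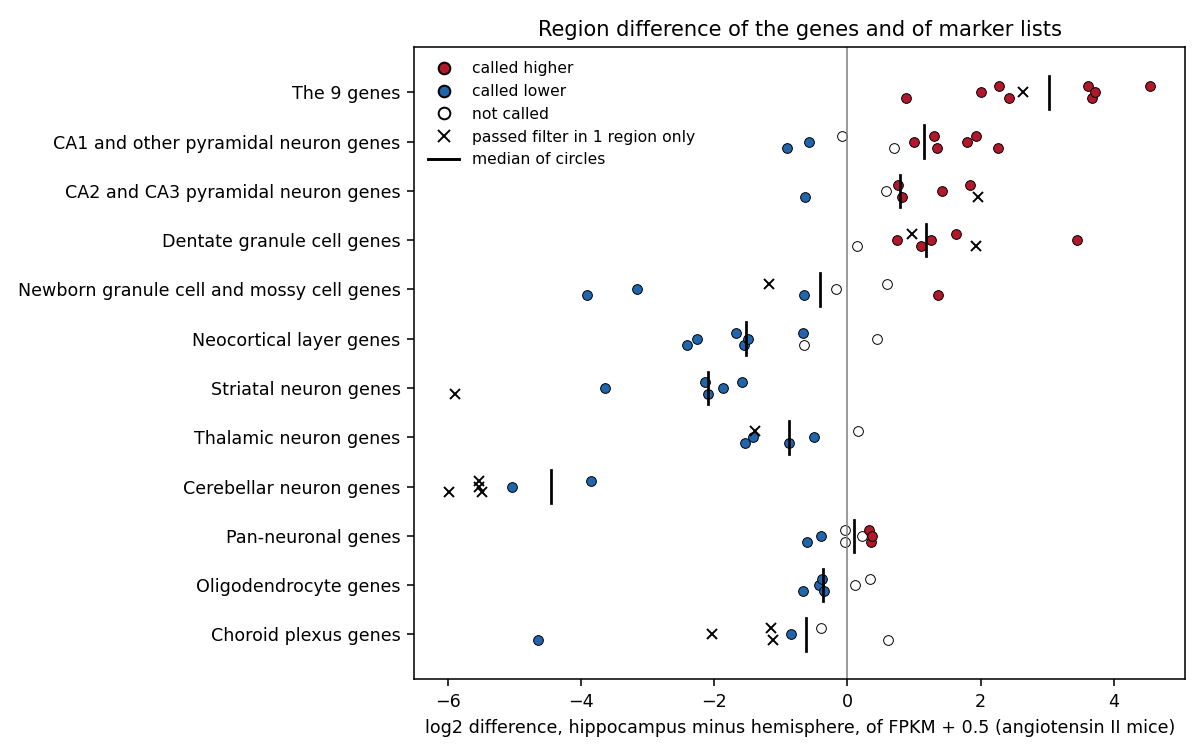
Log2 difference of FPKM + 0.5, hippocampus minus hemisphere, in angiotensin II mice (x axis) for the 9 genes and for the tested genes of 11 marker lists (y axis); filled circles were called, red higher and blue lower, open circles were not, crosses passed the filter through 1 region alone, and black bars are medians of the circles. The 9 genes and the 3 upper hippocampal lists lie mainly to the right, and the cerebellar list lies furthest to the left, at a median of -4.45.

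Cell type lists were counted in the same way, beside 12% called higher and 24.2% called lower over all genes tested. Of 8 pan-neuronal genes 3 were called higher and 2 lower (median 0.09), but under quantile scaling 0 were higher and 4 lower. Of 6 oligodendrocyte genes 0 were higher and 4 lower, of 6 interneuron genes 1 and 4, of 6 astrocyte genes 1 and 2, of 6 microglia genes 0 and 0, and of 6 endothelial genes 0 and 1. Of 4 choroid plexus genes 2 were called lower (median -0.62), and the other 3 had passed through the hemisphere alone. These values include hippocampal angiotensin II replicate 4, where the summed FPKM of 8 choroid plexus genes was 2068. The next highest hippocampal library had 191, and the highest hemisphere library 910. Without the 6 libraries with few genes 4 microglia genes were called higher.

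Genes known to act with C1ql2, Lefty1 and Wfs1 are given beside the 12% called higher and 24.2% called lower over all genes tested. Of 5 C1q-like ligands and receptors 0 were called. C1ql4 passed through the hemisphere alone, at 0.0111 ± 0.0272 FPKM in the hippocampus and 1.31 ± 0.20 in the hemisphere (SD, n = 6 each). C1ql3, which pairs with C1ql2 at mossy fibre synapses, had a log2 difference of 0.50 ± 0.50 and was not called. Of 6 Nodal pathway genes, the signalling route that Lefty1 blocks, 0 were called, and the co-receptor Tdgf1 (log2 difference -0.55) passed through the hemisphere alone. Of 8 genes of the unfolded protein response, which wolframin restrains, 1 was called higher, the sensor Atf6 (0.41), and 1 lower, the sensor Ern1 (-0.72).

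Desmosome genes split. Pkp2, plakophilin 2, averaged 8.68 ± 1.32 FPKM in the hippocampus and 1.32 ± 0.22 in the hemisphere (SD, n = 6 each), a log2 difference of 2.33 (adjusted p = 1.94e-15, limma). Of 5 such genes 1 was called higher, Pkp2, and 3 lower, among them Dst (-1.41), beside 12% and 24.2% of all genes tested. Of 5 extracellular proteases and inhibitors 0 were called higher and 2 lower. Klk6, a relative of Klk8 that oligodendrocytes make, differed by -2.96 and Serpine2 by -0.40. Evpl (log2 difference -1.75) and Mmp9 (-0.72) passed through the hemisphere alone.

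Within the hippocampus neither drug moved any of the 9 genes past the threshold. For angiotensin II minus vehicle, both drugs minus angiotensin II, both drugs minus vehicle and hydralazine alone minus vehicle, 0 of 9 genes were called by limma, where 0% of 15267 genes were called. Unadjusted p values under 0.05 numbered 210, 252, 303 and 861 over all genes in that order. These were 1.38%, 1.65%, 1.98% and 5.64% of the genes, where chance gives a share of about 0.05. All but the last thus lay below the chance share. Among the 9 genes there was 1, Wfs1 with both drugs minus vehicle. The interaction of the drugs gave 0 of 9 and 0%, with 366 genes (2.40%) at an unadjusted p under 0.05. These comparisons share control libraries.

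The intervals show what the data could have missed. Leaving aside Klk8 and Dsp, the 95% intervals of the other 7 log2 differences lay between -0.28 and 0.62 for angiotensin II minus vehicle, between -0.69 and 0.60 for both drugs minus angiotensin II, between -0.59 and 0.73 for both drugs minus vehicle and between -0.44 and 0.71 for hydralazine alone minus vehicle. Klk8 had an interval of -1.36 to 1.31 for angiotensin II minus vehicle, and of -2.36 to 0.32 for hydralazine alone minus vehicle. Both widths rest on 1 spread shared by all groups of the fit. That spread includes the 0 of Klk8 in hydralazine-only replicate 3, a library outside the angiotensin II and vehicle groups. Without the 6 libraries with few genes Klk8 stood at -0.0024 ± 0.14 (SE) for angiotensin II minus vehicle.

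Wfs1 came closest. It measured 51.8, 61.6 and 75.1 FPKM (lowest, median, highest) with both drugs, against 44.5, 49.5 and 69.3 with vehicle, and the groups overlapped. The log2 difference was 0.28 ± 0.12 (SE, n = 6 each, unadjusted p = 0.0236, adjusted p = 0.999948, limma). Without the 6 libraries with few genes it was 0.36 ± 0.11 (adjusted p = 0.707, limma). In that setting Wfs1 also differed from vehicle by 0.28 ± 0.11 with angiotensin II and by 0.27 ± 0.11 with hydralazine alone. None was called, and vehicle Wfs1 then ran from 44.5 to 52.0 FPKM. Spink8 measured 68.8, 93.3 and 96.1 FPKM with both drugs, against 49.7, 72.9 and 86.9 with vehicle, a log2 difference of 0.32 ± 0.20. Prox1 measured 5.14, 7.25 and 8.84 FPKM with both drugs, against 6.81, 8.004 and 12.2 with angiotensin II, a log2 difference of -0.31 ± 0.19. All these groups overlapped when no library was left out.

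The largest fitted differences rested on 1 library. Klk8 had a log2 difference of -1.02 ± 0.65 and Dsp of -0.66 ± 0.39 for hydralazine alone minus vehicle, neither called. Both include the 0 reads of the shallowest library, and without it they were -0.08 for Klk8 and -0.14 for Dsp. Without the 6 libraries with few genes Klk8 stood at 0.22 and the 9 genes at -0.11 to 0.27 in that comparison, with 0 called and a smallest adjusted p of 0.999862 (limma). For angiotensin II minus vehicle the 9 then lay between -0.0048 and 0.28 (smallest adjusted p = 0.808, limma). Also 0 were called without angiotensin II replicate 6.

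**Figure D4:**
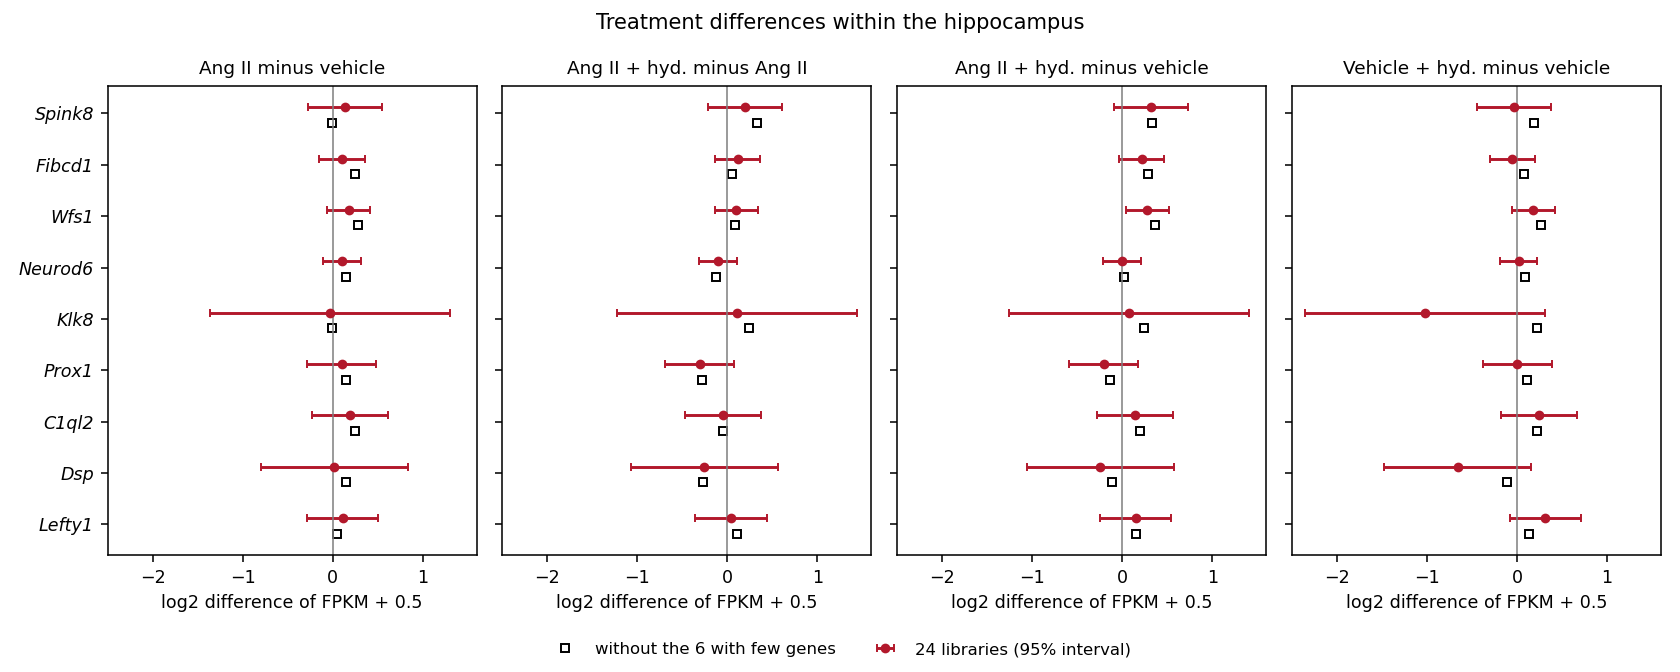
Log2 difference of FPKM + 0.5 within the hippocampus (x axis) for each gene (y axis) in 4 treatment comparisons, the group named first minus the other; red points with 95% intervals use 24 libraries and open squares leave out the 6 with few genes. All intervals but that of Wfs1 in the third panel include 0, and the square of Klk8 lies at 0.22 in the fourth panel (hydralazine alone, labelled vehicle + hyd.), where the red point is at -1.02.

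Inside a treatment some of the 9 genes went together from library to library and others did not. Prox1 as a percentage of Spink8 FPKM, a ratio of a dentate to a CA1 transcript, ran from 5.49% to 27.6% over the 24 hippocampal libraries with a median of 9.65%. Its highest value was that of angiotensin II replicate 6, where Spink8 was lowest of its group at 44.3 FPKM and Prox1 highest at 12.2. Hydralazine-only replicate 4 (26.9%) and vehicle replicate 3 (23.9%) came next, both among the libraries with few genes. In angiotensin II replicate 6 Spink8, Klk8, Lefty1 and C1ql2, of 821 to 2000 bases, lay below the mean of their treatment, and Neurod6, Wfs1, Fibcd1, Prox1 and Dsp, of 2150 to 9659 bases, above it. Over 11292 other protein-coding genes the median log2 deviation of the shortest genes (up to 2405 bases) minus that of the longest (from 7449 bases) was -0.72 in that library, the lowest of the 24. Neurod6, which is also under that length, lay above the mean. Over the 18 libraries that exclude those with few genes, this short-minus-long value had Pearson r = 0.76 with Spink8 (Spearman rho = 0.33). With Prox1 it had r = -0.72 (rho = -0.62), and the others of the 9 lay between r = -0.59 (Neurod6) and 0.54 (Lefty1). Over all 24 libraries r was 0.70 for Spink8 and -0.33 for Prox1. The part of gene length or RNA quality in these values was not tested.

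**Figure D5:**
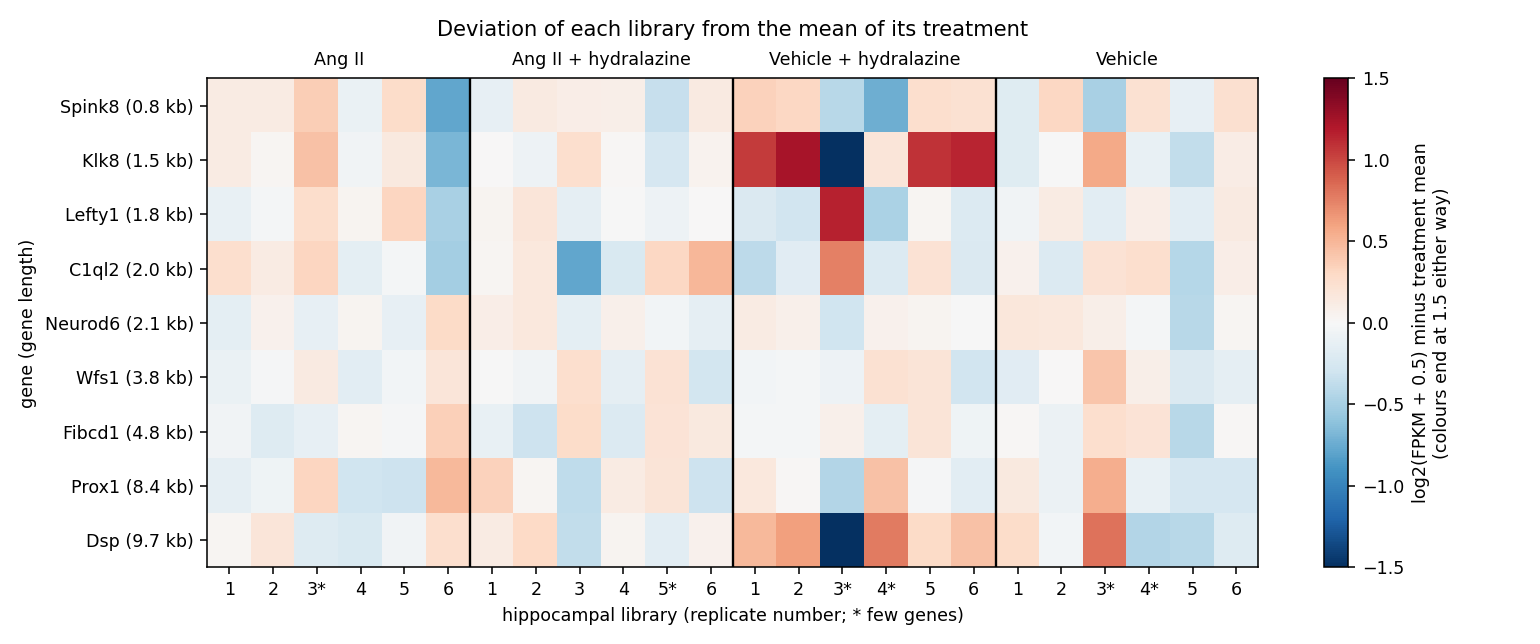
Deviation of log2(FPKM + 0.5) from the mean of its treatment for each gene (y axis, shortest on top) in each hippocampal library (x axis, replicate numbers, asterisks for few genes), red above and blue below, with colours ending at 1.5. Angiotensin II replicate 6 is blue for Spink8, Klk8, Lefty1 and C1ql2 and red for the other 5, and hydralazine-only replicate 3 shows Klk8 and Dsp far below and Lefty1 far above the mean.

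Vehicle replicate 5 differed in another way. It had the lowest Neurod6 (101 FPKM), Fibcd1 (24.3) and Wfs1 (44.5) of all 24 hippocampal libraries. In it the summed FPKM of 6 thalamic genes was 61.3, where the next highest library had 11.8, and that of 6 cerebellar genes 38.8, where the next had 12.9. Replicate 3 of both drugs had the lowest Prox1 (5.14 FPKM) and C1ql2 (62.6 FPKM), and the highest sum of 6 oligodendrocyte genes, 1837, against a median of 1298. The part of neighbouring tissue or of other cell types in these levels was not tested.

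Over the 24 hippocampal libraries, each centred on the mean of its treatment, the protein-coding gene most like Prox1 among 11292 that exclude the 9 was Plxna4 (Pearson r = 0.90, Spearman rho = 0.89), then Kmt2e (r = 0.87, rho = 0.87) and Ccdc85a (r = 0.87, rho = 0.84). Those most like Spink8 were Timm17a (r = 0.88, rho = 0.74), Polr2l (r = 0.86, rho = 0.62) and Lin37 (r = 0.86, rho = 0.77). In the order named, gene lengths were 14103, 10444 and 6971 bases for those like Prox1 (8390 bases). For those like Spink8 (821 bases) they were 7893, 1650 and 1388 bases. In the 18 libraries that exclude those with few genes the 6 values of r were 0.74 to 0.84. Prox1 and Spink8 themselves had r = -0.46. These were picked as the highest of many and are descriptions over libraries that share depth and RNA quality. Among the 9 genes, Dsp (0.58) and Neurod6 (0.60) had the highest r with Prox1, and C1ql2, of the same granule cells, had -0.09. Without the libraries with few genes Neurod6 (0.71) and Dsp (0.69) again came highest with Prox1. Spink8 had r = 0.44 with Klk8 and 0.18 with Lefty1 over 24 libraries, but 0.88 and 0.74 over the 18, where Klk8 stood above the 3 genes named for Spink8.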

How the data were processed

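Libraries were made from 2 micrograms of total RNA of either tissue, per the labels' protocols. The values are FPKM as the authors deposited them, in 1 table of 54532 genes and 48 libraries that also lists lengths and coordinates. The submitters' processing notes name GRCm38, mm10 and, as a tool, DESeq 1.10.1. How reads were aligned and counted, and with which strand setting, is not given in the sources used here; overlapping or near-identical genes are thus uncertain.

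FPKM times gene length was a whole multiple of 1 read for 100% of values above 0 (tolerance 0.1 read). These reads gave depth and floors of 3 reads (counting error only), and no count model was run. A gene was tested if at least 6 libraries of a fit reached 0.5 FPKM. Testing used limma 3.58.1 in R 4.3.3 on log2(FPKM + 0.5), with trend, robust prior and 1 mean per group, Benjamini-Hochberg adjusted over all genes. The regional fit used the 36 libraries of the 3 drug-treated groups and the treatment fit the 24 hippocampal libraries. The fit was tested on simulated data. Named genes were the 9 members, up to 3 called genes of each hippocampal or partner list with the largest difference in angiotensin II mice, and the 3 genes most like Prox1 and Spink8; any other gene was chosen after its values were seen, and some genes are not reported here. The members and lists were chosen with earlier results of these data known. Tables and figures came from pandas 2.3.3 and matplotlib 3.10.9 under Python 3.11.15. Alternatives were pseudocounts, filters, scalings, weights, a replicate block, 2-group fits and libraries left out; leaving out 8 doubted hippocampal libraries and 1 hemisphere library together was added after seeing the data. Among 120 pairs of libraries of the same group the lowest chi-square per gene was 3.20, so none looked like 1 library sequenced again. Each was counted as its own sample, though this cannot show that each came from its own mouse.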

Additional observations from a re-analysis of the deposited data

Results flagged for a closer look

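Of 72 groups of 6 libraries (9 genes in 8 groups) 7 held a library whose gap to its nearest neighbour was above the 95% critical value of Dixon's test. Chance gives about 1 in 20 groups. In the hippocampus of hydralazine-only mice replicate 3, the shallowest library, had the lowest Dsp (0 FPKM, next 3.20), the lowest Neurod6 (110.1 FPKM, next 135) and the highest Lefty1 (55.0 FPKM, next 25.1). Angiotensin II replicate 6 had the highest hippocampal Fibcd1 (45.1 FPKM, next 35.6), the highest hemisphere Wfs1 (45.4 FPKM, next 31.6) and the highest hemisphere C1ql2 (12.9 FPKM, next 8.46). In the hemisphere of vehicle mice replicate 1 had the highest Fibcd1 (7.54 FPKM, next 6.26). All of these values stayed in the comparisons above.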

How the results depend on the processing

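Of the 8 genes other than Dsp, 8 were called higher regionally in each treatment under each alternative run. None of their regional log2 differences changed direction or lost its call, with a largest adjusted p of 0.0318 (limma), for Klk8. The regional log2 difference of Dsp, not tested, depended most on the pseudocount, from 1.53 to 3.57. Over all genes the regional calls ran from 5449 to 12593 with angiotensin II, from 6348 to 12674 with both drugs and from 5222 to 12605 with hydralazine alone, against 6241, 7194 and 8535; the highest came with library weights. Treatment counts within the hippocampus were 0 under each alternative. Most correlations between same-numbered libraries were weak, which cannot show whether such libraries share a mouse or a batch. Of the regional pairs 0 of 24 correlated above 0.1, and of the treatment pairs 8 of 36. In the same order, 2 of 24 and 19 of 72 libraries correlated best with their own number, each among 6 libraries of the other group. With the replicate block all 8 genes other than Dsp were called regionally in each treatment. The count was 0 in each treatment comparison.

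Some treatment log2 differences that were not called changed sign. For angiotensin II minus vehicle, Dsp (0.02) gave -0.00968 with median-of-ratios scaling, -0.00126 with quantile scaling and -0.0349 without angiotensin II replicate 6, Neurod6 (0.11) gave -0.00115 with library weights, Klk8 (-0.03) gave 0.0806 with weights and 0.11 without replicate 6, and Spink8 (0.13) gave -0.00479 without the 6 libraries with few genes. For both drugs minus angiotensin II, Neurod6 (-0.11) gave 0.00802 with weights, and Klk8 (0.10) gave -0.0343 and Lefty1 (0.04) -0.056 without replicate 6. For both drugs minus vehicle, Neurod6 (-0.00092) gave 0.00687 with weights and 0.0209 without the few-gene libraries. For hydralazine alone minus vehicle, Spink8 (-0.03) gave 0.13 and Klk8 (-1.02) 0.17 with weights, and Spink8 0.19, Klk8 0.22 and Fibcd1 (-0.05) 0.0809 without the few-gene libraries. Leaving out 1 library at a time gave ranges across 0 for angiotensin II minus vehicle of Klk8 (-0.12 to 0.11) and Dsp (-0.0722 to 0.18), for both drugs minus angiotensin II of C1ql2 (-0.15 to 0.11), Klk8 (-0.0343 to 0.19) and Lefty1 (-0.056 to 0.11), for both drugs minus vehicle of Neurod6 (-0.083 to 0.0329), and for hydralazine alone minus vehicle of Spink8 (-0.13 to 0.11), Prox1 (-0.0852 to 0.11) and Neurod6 (-0.0653 to 0.0771). The cause was not tested.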
